A study of Mus musculus with 2 samples.

Results

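The transcription factors that mark position along the gut were followed in sorted intestinal epithelial cells of mice that drank DSS (dextran sulfate sodium), which damages the epithelium of the bowel. The 9 genes were taken by symbol from the 32285 genes listed in both count tables: Gata4, Gata6, Onecut2, Cdx1, Cdx2, Osr2, Hoxb6, Hoxb7 and Hoxb8. All 9 were found. One single-cell library came from wild type (WT) littermates and the other from MG53-TG mice, which overexpress MG53, the product of Trim72, throughout the body. The DSS dose was 2.5% for every mouse, and cells were taken on day 7 as live, EpCAM-positive cells from dissociated crypts. The labels give the tissue only as intestine, so a position along the gut could be read only from the transcripts, and they do not say how many mice a library holds. By the study's description the cells came from several mice per group, and the files hold no map from cells to mice.

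Position in the gut epithelium is kept by transcription factors that stay on in the stem cells and in all their progeny. Gata4, a zinc-finger factor, is known for keeping the duodenum and jejunum distinct from the ileum, and its relative Gata6 is expressed along the whole small intestine. Onecut2 is a cut-homeodomain factor of the proximal intestine. Cdx1 and Cdx2 are caudal homeodomain factors that set intestinal fate against stomach fate. Osr2 is an odd-skipped zinc-finger factor, best known from limb, palate and kidney development. Hoxb6, Hoxb7 and Hoxb8 lie side by side in the HoxB cluster, whose genes are used in body order from head to tail.

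Per the GENCODE M21 annotation of GRCm38 (mm10, the build of the submitters' notes), Hoxb8, Hoxb7 and Hoxb6 follow each other on the plus strand of chromosome 11. Hoxb8 spans chr11:96281905-96285315, Hoxb7 chr11:96286623-96290162 and Hoxb6 chr11:96292476-96301569, with gaps of 1307 and 2313 bases between them.

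Among the RefSeq promoter windows at hand (250 bases before to 50 bases after a gene's start, GRCm38.p6), 2 of the 9 genes had an entry, Cdx2 and Hoxb8. Hoxb8 is shown because Hox genes are classical targets of the Cdx factors and both kinds of factor are among the 9. The capitals mark the CDX core TTTATG, searched on both strands together with the GATA core AGATAA; the letters of the 2 motifs do not overlap in this window.
Hoxb8 promoter, chr11:96281655-96281954, plus strand: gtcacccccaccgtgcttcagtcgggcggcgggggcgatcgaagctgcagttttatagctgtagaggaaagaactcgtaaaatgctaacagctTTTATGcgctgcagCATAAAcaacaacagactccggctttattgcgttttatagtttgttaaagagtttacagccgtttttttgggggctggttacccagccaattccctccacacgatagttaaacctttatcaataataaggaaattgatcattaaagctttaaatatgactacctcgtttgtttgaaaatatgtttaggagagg
The window held 2 CDX cores, 157 bases before the start on the plus strand and 143 bases before it on the minus strand, and 0 GATA cores. The Cdx2 window held 0 of either. Of all 32851 promoter windows of this length, 11.9% held the CDX core and 11.2% the GATA core, so that a match is a description of the letters and says nothing on binding.

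Of the other factors, Gata4 lies at chr14:63198922-63271692, Cdx2 at chr5:147300805-147307270 and Osr2 at chr15:35296098-35303305. Gata6 (chr18:11052064-11085635), Onecut2 (chr18:64340020-64400987) and Cdx1 (chr18:61018862-61036199) share chromosome 18. Each value below is a sum over the whole gene from 3′ reads, and values are compared for the same gene only. Hoxb6 overlaps Hoxb5os, and Gata6 overlaps 1010001N08Rik, each on the opposite strand. Whether the counting used strand is not given in the sources used here, so reads of these pairs might be mixed.

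After the cell filter, 6963 WT and 4941 MG53-TG cells were kept, with median depths of 14035 and 17950 unique molecular identifiers (UMIs, each a captured transcript), and 6119 and 4606 of them lay in epithelial clusters. A larger share of otherwise usable barcodes was lost to the mitochondrial limit in MG53-TG (46.1%) than in WT (33.7%), and 8 barcodes occurred among the kept cells of both libraries. In epithelial cells Trim72, the transgene's gene, had 63 UMIs (WT) and 4569 UMIs (MG53-TG), or 0.594 and 50.8 CPM (counts scaled to 1000000 UMIs of the same cells), which matched the labels. With 1 library per genotype there is no replicate, no test between genotypes was possible, and all intervals below are exact 95% intervals for counting error only. Program version and barcode filtering coincided with genotype and cannot be told apart from it. The T cell-like cluster (642 WT and 251 MG53-TG cells) served as cells that should lack these factors. In them Gata4, Onecut2, Cdx1, Cdx2, Osr2 and Gata6 reached 7.27 CPM at most, from 10 UMIs or fewer per library. The 3 Hoxb genes had 0 UMIs there, with upper interval limits of 1.83 (WT) and 3.83 CPM (MG53-TG).

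Defining genes of the colon were at or near 0, so the 9 factors were read here mainly as factors of the small intestine. Hoxb13, a homeobox gene of the most posterior gut, and Car1, a carbonic anhydrase of colonocytes, had 0 UMIs in both libraries, and Aqp8, a water channel of surface colonocytes, had 35 and 37. By contrast Fabp6, the bile acid binding protein of the ileum, had 36298 and 12614 UMIs, and 3 clusters (8, 14 and 16) each carried more than 1000 CPM of it in both libraries. These ileal-gene clusters made up 13.4% of the WT epithelium (823 cells, 12.6 to 14.3) and 9.92% of that of MG53-TG (457 cells, 9.07 to 10.8).

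Most of the factors had cell types in which they were high or low in both libraries. Gata4 stood at 38.9 to 45.9 CPM in enterocyte-like and 41.6 to 41.8 CPM in stem-like cells over both libraries, at 18.6 to 19.2 CPM in goblet-like and at 5.93 to 7.36 CPM in Paneth-like cells. Enterocyte-like, stem-like and absorptive progenitor-like cells could not be ordered by their intervals. Gata6 was higher in enterocyte-like cells (92.6 CPM in WT, 101 in MG53-TG) than in tuft-like cells (41.3 and 47.5) and lowest in Paneth-like cells (24.2 and 30.8). In goblet-like cells Gata6 was at 76.6 CPM (72.7 to 80.6) and 85.6 CPM (82.3 to 89.1), below its enterocyte-like intervals of 87.1 to 98.4 and 95.4 to 107. CPM is a share of a type's UMIs, and Paneth-like cells were the deepest named type, at median depths of 42085 (WT) and 28988 UMIs (MG53-TG). Of WT Paneth-like cells 55.4% held a Cdx1 UMI, 30.9% a Cdx2 UMI and 22.1% an Osr2 UMI. In the WT epithelium these shares were 57.6%, 51.6% and 33.2%. The part of depth in the low Paneth-like CPM of the factors was not tested.

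Onecut2 was highest in the enteroendocrine-like, or hormone-secreting, cells, with 235 CPM in WT (211 to 261) and 257 CPM in MG53-TG (232 to 285), and the next type, stem-like cells, followed at 176 and 186 CPM with intervals that lay below in both libraries. Higher still was cluster 19, which was left unnamed because its leading genes, Tph1, Chga and Tac1 among them, are those of enteroendocrine cells, while by share of list the secretory progenitor markers came first, with 4 markers against 7 of the longer enteroendocrine list. There Onecut2 reached 458 CPM in WT (356 UMIs) and 406 CPM in MG53-TG (234 UMIs). Tph1 makes serotonin, and Tac1 encodes substance P.

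The 2 Cdx genes differed in opposite directions between tuft-like and enterocyte-like cells. Cdx1 was highest in tuft-like cells, the chemosensory cells of the epithelium, with 145 CPM in WT (131 to 161) and 163 CPM in MG53-TG (151 to 176), and stood at 37.7 and 40.8 CPM in enterocyte-like cells. Cdx2 was at 84.6 and 97.4 CPM in enterocyte-like cells and at 29.8 and 32.1 CPM in tuft-like cells. Over the 21 epithelial clusters with at least 50 cells in each library, the Pearson correlation of their log2(CPM + 5) levels was -0.26 in WT and -0.23 in MG53-TG. These points share the library and its depth, and the correlation is a description.

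Osr2 stood at 63.1 CPM in WT (53.9 to 73.5) and 61.9 CPM in MG53-TG (54.4 to 70.1) tuft-like cells, and at 57.8 and 49.4 CPM in absorptive progenitor-like cells, which overlapped. By CPM it was lowest in Paneth-like cells, at 7.51 and 4.74. The Hoxb genes were sparse: Hoxb6 had 56 (WT) and 53 (MG53-TG) epithelial UMIs, Hoxb7 227 and 133, and Hoxb8 70 and 27. Hoxb8 had its highest level among the named types in enteroendocrine-like cells, with 13.4 CPM in WT (20 UMIs in 8 of 158 cells) and 3.38 CPM in MG53-TG (5 UMIs, all in 1 of 115 cells). In cluster 19 it was at 3.86 CPM (3 UMIs in 3 of 128 WT cells) and 12.2 CPM (7 UMIs in 3 of 66 MG53-TG cells). In enterocyte-like cells Hoxb8 had 0 UMIs in both libraries, 625 and 536 cells, with upper interval limits of 0.327 and 0.302 CPM. Hoxb7 stood at 4.97 and 4.72 CPM in tuft-like cells and at 0.531 and 0.41 CPM in enterocyte-like cells.

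**Figure D1:**
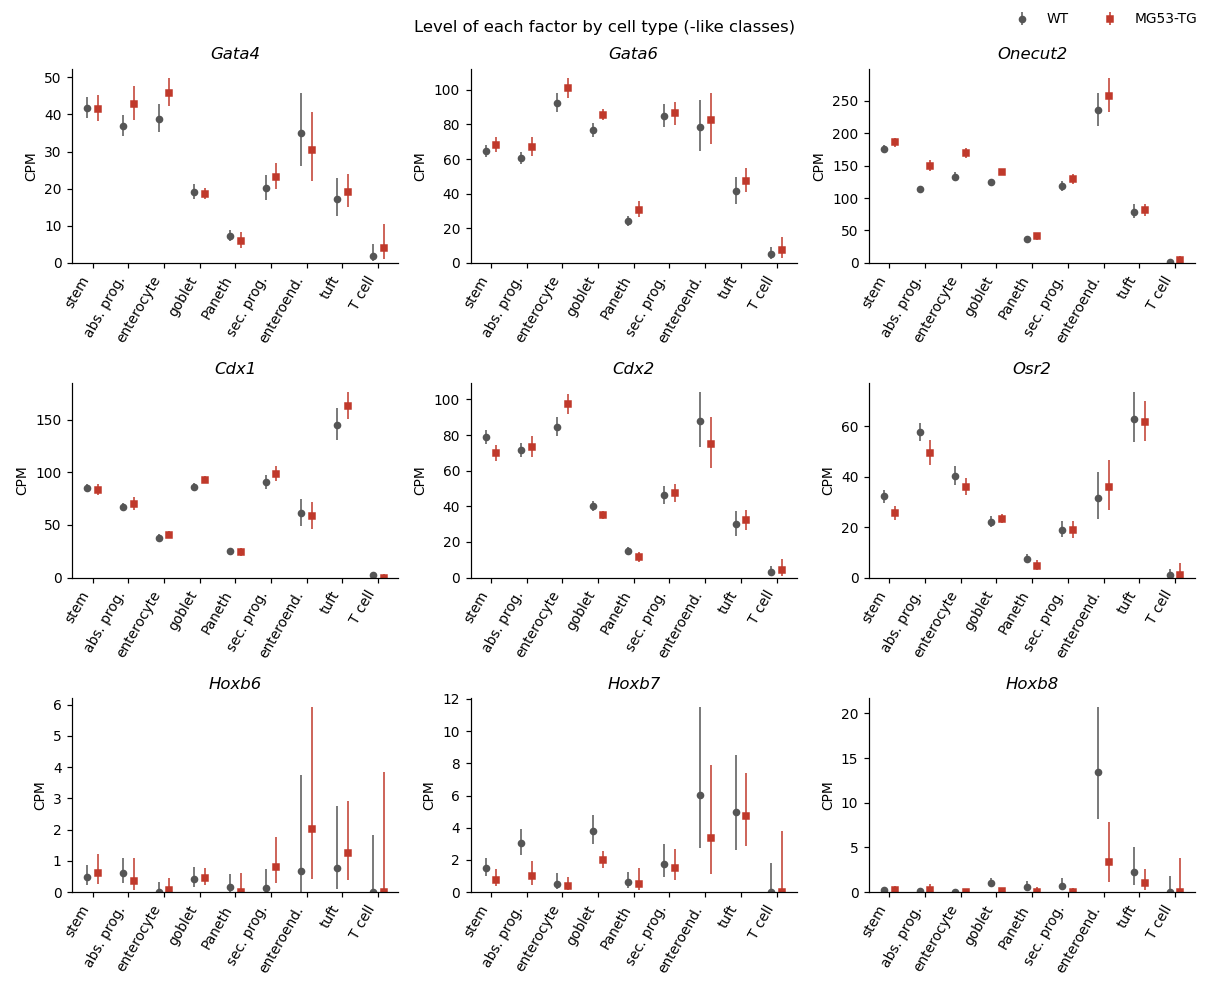
Level of each of the 9 factors (y axis, CPM, linear) in 8 epithelial -like classes and in T cell-like cells (x axis) of the WT library (circles) and the MG53-TG library (squares). Bars are exact 95% Poisson intervals, which cover counting error only. Onecut2 peaks in enteroendocrine-like and Cdx1 in tuft-like cells, and every factor is at 7.27 CPM or less in T cell-like cells.

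The ileal-gene clusters set Onecut2 and Osr2 against each other. Cluster 16, absorptive progenitor-like with Fabp6 as its leading gene, held 213 WT and 74 MG53-TG cells. Onecut2 there was at 5.97 CPM in WT (21 UMIs, 3.7 to 9.13) and 13.7 CPM in MG53-TG (20 UMIs, 8.35 to 21.1). In cluster 7, also absorptive progenitor-like but not among the ileal-gene clusters, Onecut2 stood at 137 and 185 CPM. Osr2 was at 129 CPM (118 to 142) and 122 CPM (104 to 141) in cluster 16 against 42.5 and 32.2 CPM in cluster 7. Gata4 was likewise lower in cluster 16, at 15.1 and 22.5 CPM against 44 and 51 CPM. Cdx2 went the other way, with 97.9 and 107 CPM in cluster 16 and 66.9 and 75.7 CPM in cluster 7. Gata6 was at 45.5 and 48.5 CPM against 65.6 and 81.5 CPM, and Cdx1 did not separate the clusters, with 58.6 and 58.1 CPM against 58.9 and 67.6 CPM.

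Cluster 14, unnamed because its cells were shallow, was led by Saa1, Slc10a2, the ileal bile acid transporter, and Fgf15, the hormone through which the ileum signals to the liver. It carried the highest Hoxb6 level of all epithelial clusters of at least 50 cells per library, 15.1 CPM in WT (17 UMIs in 14 of 261 cells) and 21.4 CPM in MG53-TG (11 UMIs in 8 of 98 cells). Hoxb7 was at 8.91 and 15.5 CPM there, and at 11.1 CPM (39 UMIs) and 4.78 CPM (7 UMIs) in cluster 16. Gata4 was represented in cluster 14 by 7 WT UMIs and 1 MG53-TG UMI. Gata6 was at 102 CPM (83.8 to 122) and 69.9 CPM (49 to 96.8) in the same cluster, so that the 2 Gata genes parted there. Cluster 8, the other shallow cluster, had Onecut2 at 31.9 and 46.4 CPM and Osr2 at 60.9 and 68.2 CPM. The median depth of clusters 8 and 14 was 3341 to 6326 UMIs per library, against 16259 and 20025 in cluster 16, and the part of depth in these values was not tested.

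**Figure D2:**
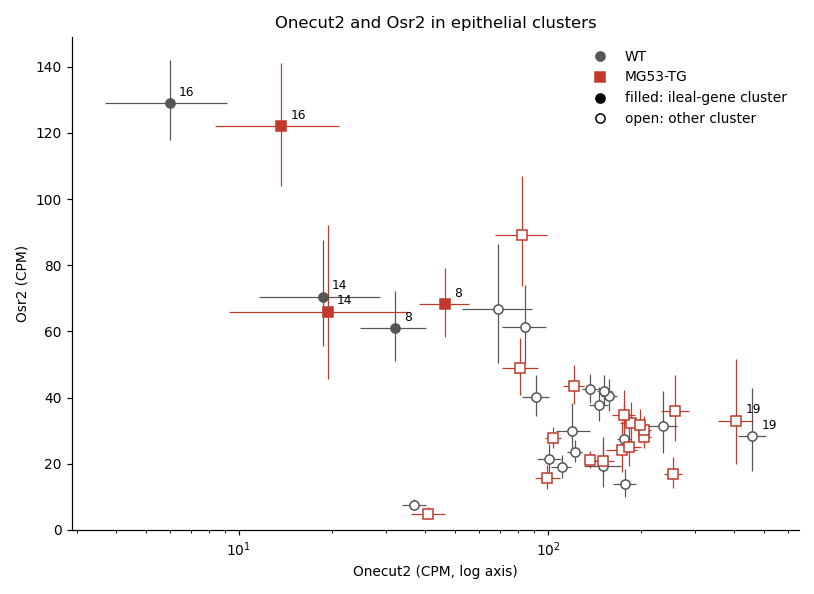
Onecut2 (x axis, CPM, log axis) against Osr2 (y axis, CPM, linear) in each epithelial cluster with at least 50 cells, in WT (circles) and MG53-TG (squares), with exact 95% Poisson intervals. Filled symbols are the 3 ileal-gene clusters, numbered 8, 14 and 16, and cluster 19 is numbered for its high Onecut2. Cluster 16 lies at the upper left in both libraries, and the Paneth-like cluster is low for both genes.

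To follow the factors along the gut without using them, each epithelial cell was given a regional score. The score is the share of distal small intestine genes among the UMIs of 22 proximal and 22 distal genes, in counts thinned to one fixed depth per cell. The lists hold none of the 9 factors. With at least 10 such UMIs required, 2284 WT and 1571 MG53-TG cells were scored and 3835 and 3035 were not, and the scored cells were cut into 5 bins of equal size over both libraries together. The most proximal bin held 407 WT and 364 MG53-TG cells, the most distal one 540 and 231. The bins are ranges and not types: 38.1% of WT and 41.1% of MG53-TG scored cells lay within 2 percentage points of a cut. Cell types and depth moved with the bins. Of the most distal cells, 95.9% in WT and 95.7% in MG53-TG came from the ileal-gene clusters, median depth was 18703 and 21935 UMIs in the first bin and 4469 and 6271 in the last, and tuft-like cells made up 15.7% and 27.2% of the first bin and 0 of the last.

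Onecut2 was lower toward the distal end. In WT it stood at 174, 159, 143, 71 and 11.8 CPM from the most proximal to the most distal bin, and in MG53-TG at 205, 180, 160, 78.1 and 18.9 CPM. The log2 difference of the end bins, distal over proximal, was -3.88 in WT (-4.30 to -3.48) and -3.44 in MG53-TG (-3.90 to -3.01). The level was lower in each bin than in the bin before it in both libraries.

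Gata4 was also lowest at the distal end, with a different course in the 2 libraries. Its WT levels were 44.3, 41.9, 40.1, 33.1 and 14 CPM, and its MG53-TG levels 42.7, 44.8, 47.2, 42 and 22.8 CPM. In WT the fourth bin (28.4 to 38.3) already lay below the first (39.9 to 49.2), while in MG53-TG the first 4 bins overlapped. The end bins differed by -1.66 in WT (-2.07 to -1.27) and -0.91 in MG53-TG (-1.35 to -0.49). In the most distal bin Gata4 was higher in MG53-TG than in WT by a log2 ratio of 0.70 (0.15 to 1.25). The distal cells of MG53-TG also had a lower median score, 64.3% against 74.1%, and the part of this in the Gata4 level was not tested.

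Osr2 ran opposite to Onecut2. It stood at 23.6, 32.2, 39.7, 70 and 108 CPM in WT and at 21.1, 29.1, 41.1, 68.4 and 95.5 CPM in MG53-TG, a log2 difference of 2.20 (1.96 to 2.45) and 2.18 (1.89 to 2.47) between the end bins. In each of the 5 bins the interval of the ratio between libraries included 0, from -0.18 (-0.42 to 0.05) in the last bin to 0.05 (-0.19 to 0.28) in the third.

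Among the scored cells, Hoxb6 and Hoxb7 had most of their UMIs in the last bin, although cells without a score held more UMIs of each gene than this bin did. Hoxb6 had 0, 0, 0, 2 and 25 UMIs over the WT bins and 1, 2, 2, 1 and 13 over the MG53-TG bins. With the 0 set to 3 counts the WT end bins differed by a log2 value of 3.89, and the exact interval began at 3.49. Hoxb7 had 7, 7, 8, 3 and 49 UMIs in WT, a log2 difference of 3.64 (2.49 to 5.03), and 4, 3, 3, 4 and 16 in MG53-TG, a difference of 3.85 (2.22 to 5.89) from fewer than 30 UMIs in the end bins. Hoxb8 had 1 and 4 UMIs in the WT end bins and 0 and 3 in MG53-TG, too few for a direction in WT, where the interval ran from -0.50 to 8.46.

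Gata6, Cdx1 and Cdx2 varied less, and their directions depended on how the cells were scored (with unthinned counts Cdx2 gave -0.08 in WT and -0.61 in MG53-TG). Cdx2 stood at 65.3 CPM in the first and 90.7 CPM in the last WT bin, and at 66.8 and 94.2 CPM in MG53-TG, log2 differences of 0.47 (0.28 to 0.66) and 0.50 (0.26 to 0.72). Gata6 was at 78.4 and 62.4 CPM in WT and 83.8 and 53.3 CPM in MG53-TG, differences of -0.33 (-0.53 to -0.12) and -0.65 (-0.94 to -0.37). Cdx1 was at 55.6 and 50.4 CPM in WT and 83.4 and 43.9 CPM in MG53-TG, differences of -0.14 (-0.38 to 0.09) and -0.93 (-1.24 to -0.63). The high first bin of MG53-TG stood beside its larger share of tuft-like cells, the type highest in Cdx1, and the part of that share was not tested.

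The gradient was therefore also taken within absorptive cells alone (enterocyte-like, absorptive progenitor-like and clusters 8, 9 and 14), a choice made after the data were seen. Onecut2 then differed by -3.79 in WT and -4.02 in MG53-TG between the end bins, Gata4 by -1.68 and -1.23, and Osr2 by 2.11 and 2.32. Hoxb7 differed by 4.90 in WT, with 3 and 47 UMIs, and had 0 and 15 UMIs in MG53-TG. The Cdx1 difference was 0.25 (-0.01 to 0.50) in WT and -0.04 (-0.39 to 0.29) in MG53-TG absorptive cells, so that its MG53-TG difference was not seen within absorptive cells. Enterocyte-like cells alone, which hardly reach the distal range, gave 0.22 for Gata4 in MG53-TG.

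**Figure D3:**
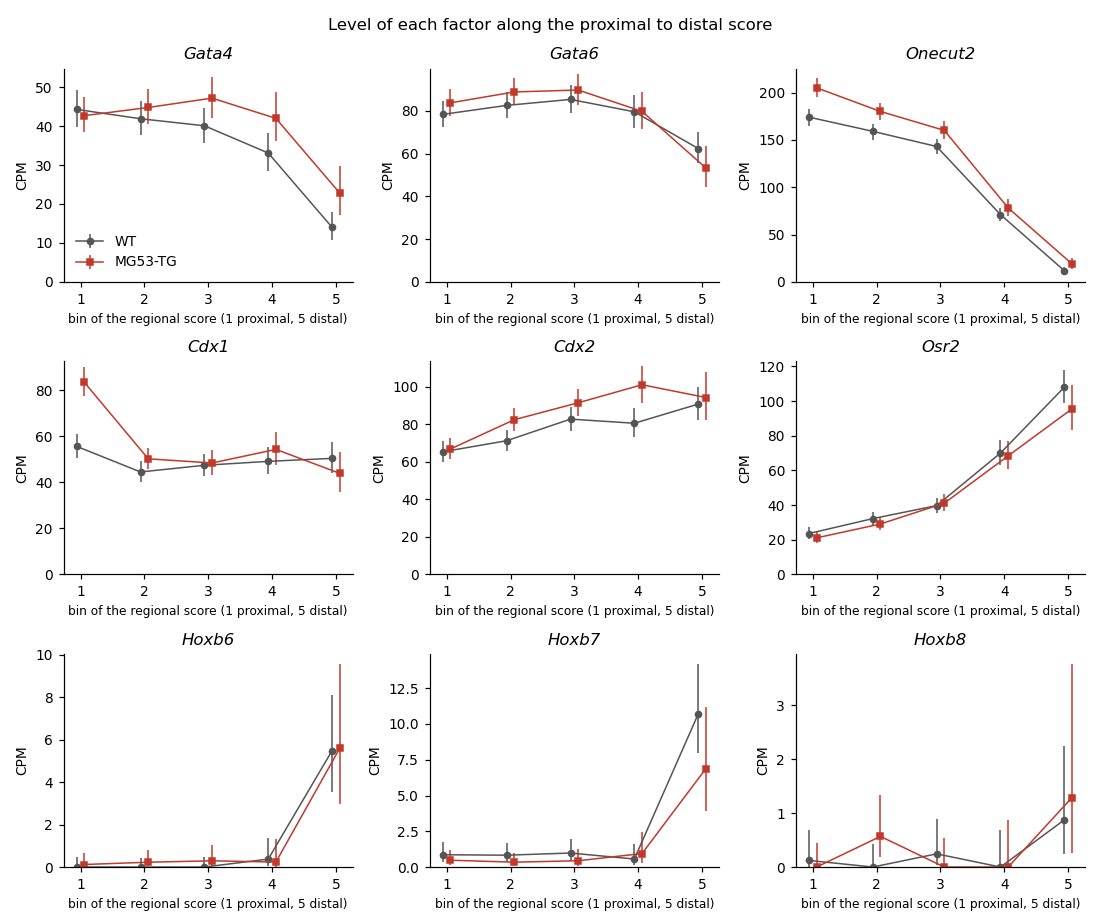
Level of each factor (y axis, CPM, linear) in the 5 bins of the regional score (x axis, 1 most proximal, 5 most distal) in WT (circles) and MG53-TG (squares), with exact 95% Poisson intervals. Onecut2 is lower and Osr2 higher from bin to bin in both libraries, Gata4 is lowest in the last bin, and Hoxb6 and Hoxb7 are highest in the last bin.

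A log2 difference of at least 1 with at least 30 UMIs in the end bins was taken as past the fold. In WT, 7 of the 9 factors reached that count. Osr2 and Hoxb7 were past it on the distal side, where 13.6% of all genes tested were, and Gata4 and Onecut2 on the proximal side, where 15.6% were. In MG53-TG 6 factors reached the count. Osr2 was past the fold on the distal side (14.2% of genes tested) and Onecut2 on the proximal side (22.2%). These calls depended on the cells scored and on the genes in the lists. With the score on unthinned counts the MG53-TG difference was 0.78 for Osr2, short of the fold, -1.04 for Onecut2 and -1.39 for Gata4, which then passed it. Gata4 in MG53-TG also passed it with lists without Fabp1, Apoa4 and Fabp6 (-1.29) and in absorptive cells alone (-1.23). Within enterocyte-like cells alone the WT difference of Gata4 was -0.22 and that of Hoxb7 0.59, both short of it. Many genes thus changed along the score, and the factors' number stands beside that background without more being read from it.

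Other regulators of gut position and absorptive fate, from a list of 46 genes, were placed on the same score. Of 44 outside the score lists, 21 had enough UMIs in both libraries, 7 were past the fold on the distal side in both and 2 on the proximal side in both. Of all genes tested, 13.6% in WT and 14.2% in MG53-TG were past it on the distal side, and 15.6% and 22.2% on the proximal side. The share of all genes past it in both libraries was not computed, so nothing more is read from the 7 and 2. The proximal ones were Pdx1, a homeodomain factor of duodenum and pancreas, at 16.1 and 0.657 CPM in the WT and 16 and 0.86 CPM in the MG53-TG end bins, and Meis2, a Hox cofactor, at 11.1 and 0.438 CPM in WT and 7.98 and 0.86 CPM in MG53-TG. The distal ones included the bZIP factor Maf (log2 difference 2.90 in WT, 3.03 in MG53-TG), Klf4, a zinc-finger factor of differentiated cells (2.51 and 2.57), and Prdm1, a repressor known from the immature gut (2.48 and 3.52). Pdx1 and Meis2 each had only 2 or 3 UMIs in the distal bins.

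Cells with a UMI of Hoxb6, Hoxb7 or Hoxb8 were compared with the other cells of the same type, a split chosen after the data were seen. Such cells numbered 234 (WT) and 132 (MG53-TG) in the epithelium, with median depths of 17613 and 16869 UMIs against 15553 and 18692 in the rest. In goblet-like cells, where the regional score is rarely defined, Onecut2 stood at 26.8 CPM in the 70 WT cells with a Hoxb UMI and at 132 CPM in the 1324 without, a log2 difference of -2.30 (-2.84 to -1.82). In the 47 MG53-TG goblet-like cells with a Hoxb UMI it was at 38.1 CPM against 144 CPM, a difference of -1.91 (-2.44 to -1.44). Gata4 differed by -1.50 (-2.64 to -0.56) in WT and -1.81 (-3.44 to -0.58) in MG53-TG goblet-like cells, and Osr2 by 0.63 (0.13 to 1.09) and 0.74 (0.20 to 1.23). Goblet cells belong to the secretory lineage, so that the opposed levels were not limited to absorptive cells. Paneth-like cells, with 12 WT cells holding a Hoxb UMI, gave -0.15 (-1.03 to 0.61) for Onecut2 and -0.07 (-2.38 to 1.52) for Osr2. Within cluster 16, the ileal-gene cluster with the high Osr2 level, the 31 WT cells with a Hoxb UMI had less Osr2 than the other 182, by -0.41 (-0.82 to -0.02), and Onecut2 was not separated at -0.31 (-2.71 to 1.47). In cluster 14 the Osr2 difference was 1.28 (0.50 to 2.02) in WT and 1.68 (0.58 to 2.74) in MG53-TG.

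Stem-like cells gave the same directions from few cells. Onecut2 was at 88 CPM in the 28 WT stem-like cells with a Hoxb UMI and at 180 CPM in the 843 without, a difference of -1.03 (-1.40 to -0.68). The 14 MG53-TG cells gave 53.6 against 190 CPM, a difference of -1.83 (-2.49 to -1.24). Osr2 differed by 0.99 (0.53 to 1.42) and 1.12 (0.44 to 1.74). The Gata4 intervals, -1.23 to 0.06 and -1.55 to 0.23, included 0. In tuft-like cells Osr2 differed by 1.52 (0.86 to 2.13) in WT and 0.87 (0.27 to 1.41) in MG53-TG.

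The neighbouring Hoxb genes, chosen after the data were seen, were at higher levels in these cells, with many of their UMIs outside them. Hoxb9 had 199 UMIs in the 234 WT epithelial cells with a Hoxb6, Hoxb7 or Hoxb8 UMI and 101 in the other 5885, and 114 and 43 UMIs in the 132 and 4474 MG53-TG cells. Hoxb4 and Hoxb5 together had 93 and 127 UMIs in WT and 73 and 85 in MG53-TG. On the log2 scale Hoxb9 was higher in the cells with a UMI by 5.44 (5.09 to 5.80) and 6.54 (6.02 to 7.08). Fabp6 was higher in them by 2.95 in WT and 3.48 in MG53-TG over all epithelial cells, whereas in stem-like cells it was at 9.19 and 9.2 CPM with and without a Hoxb UMI in WT.

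**Figure D4:**
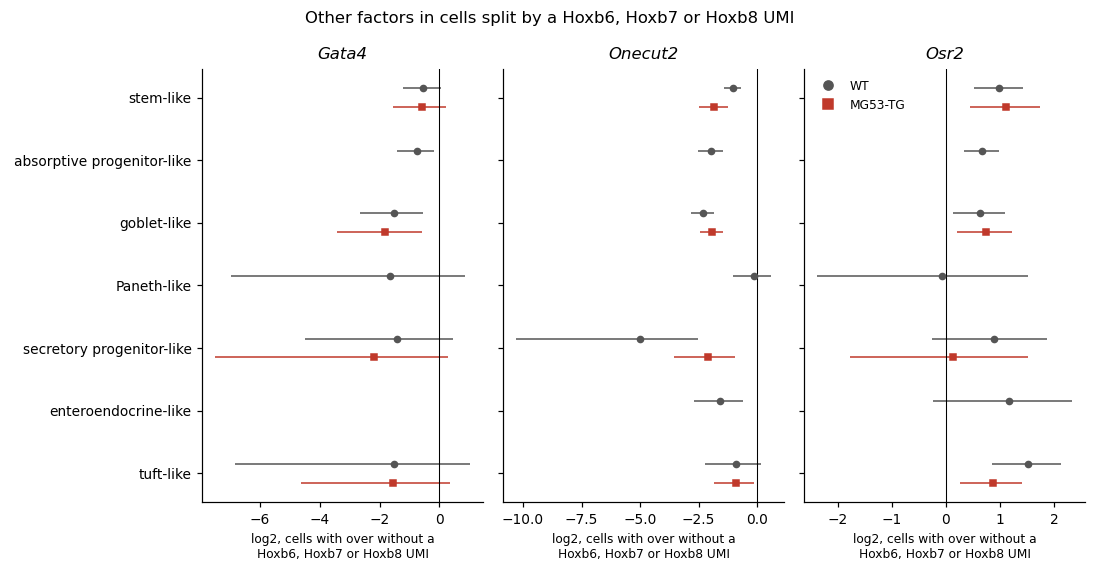
Log2 difference (x axis) of Gata4, Onecut2 and Osr2 between cells with and without a UMI of Hoxb6, Hoxb7 or Hoxb8 within 7 cell types (y axis), in WT (circles) and MG53-TG (squares), with exact 95% conditional binomial intervals. A library's point is left out where a side has under 10 cells, and Gata4 has no enteroendocrine-like point because the 11 WT cells with a Hoxb UMI held 0 of its UMIs. The Onecut2 points lie below 0, and the Osr2 points lie above 0 except in Paneth-like cells (-0.07), with several intervals that include 0.

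Cells with a Gata4 UMI were compared with cells without one, first over all epithelial cells. Hoxb6, Hoxb7 and Hoxb8 together had 57 UMIs in the 2018 WT epithelial cells with a Gata4 UMI and 296 in the 4101 without, 1.23 against 4.96 CPM at median depths of 20297 and 13111 UMIs, a log2 difference of -2.01 (-2.45 to -1.60). In MG53-TG they had 23 UMIs in 1676 cells and 190 in 2930, a difference of -2.82 (-3.52 to -2.20). Onecut2 was higher in cells with a Gata4 UMI, by 0.62 (0.57 to 0.67) in WT and 0.54 (0.49 to 0.59) in MG53-TG. Osr2 differed by -0.07 (-0.16 to 0.03) and -0.20 (-0.31 to -0.09). Within absorptive progenitor-like cells the Osr2 difference was -0.48 (-0.66 to -0.30) in WT and -0.72 (-1.01 to -0.43) for MG53-TG, and within enterocyte-like cells -0.19 (-0.47 to 0.08) and -0.66 (-0.94 to -0.37). Paneth-like cells went the other way in WT, at 1.21 (0.60 to 1.82) against 0.71 (-0.57 to 1.90) for MG53-TG, and enteroendocrine-like cells gave 0.81 (-0.09 to 1.70) and -0.96 (-1.99 to -0.03). When cells were thinned to equal depth before the split, 220 WT and 173 MG53-TG cells kept a Gata4 UMI. They held 0 UMIs of Hoxb6, Hoxb7 and Hoxb8 in both libraries, while the cells without one held 13, 18 and 6 in WT and 2, 14 and 4 in MG53-TG. With so few cells and UMIs left, the 0s do not show whether the difference holds at equal depth.

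Between the libraries, the summed epithelial levels of 7 of the 9 factors differed by less than 0.5 on the log2 scale. Gata4 was at 29.5 (WT) and 29.8 CPM (MG53-TG), a log2 ratio of 0.01 (-0.06 to 0.09). Gata6 was at 68 and 78 CPM, a ratio of 0.20 (0.15 to 0.25), Onecut2 at 125 and 145 CPM, a ratio of 0.22 (0.18 to 0.25), and Cdx1 at 67 and 76.4 CPM, a ratio of 0.19 (0.14 to 0.24). Cdx2 was at 60 and 56.7 CPM (-0.08, -0.14 to -0.03) and Osr2 at 34.2 and 30.1 CPM (-0.18, -0.26 to -0.11). The median over all genes tested was 0.09.

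Hoxb7 and Hoxb8 were past a log2 ratio of -0.5 and were the only members past 0.5 in either direction. Hoxb7 stood at 2.14 (WT) and 1.48 CPM (MG53-TG), a ratio of -0.53 (-0.85 to -0.22), and Hoxb8 at 0.66 and 0.3 CPM, a ratio of -1.14 (-1.83 to -0.48). Of the 14656 genes with at least 30 UMIs, 3.87% were at -0.5 or below and 9.17% at 0.5 or above. The 2 of 9 rest on the members with few UMIs, where counting error alone is wide. The third, Hoxb6, was at 0.528 and 0.589 CPM, a ratio of 0.16 (-0.41 to 0.73). Without the ileal-gene clusters, which made up less of MG53-TG, Hoxb7 was at -0.41 (-0.77 to -0.07), short of 0.5, Hoxb8 at -1.29 (-2.02 to -0.60), and Hoxb6 at 0.55 (-0.17 to 1.28), past 0.5 in the opposite direction from 31 and 39 UMIs. With doublets kept, Hoxb7 was at -0.47 (-0.77 to -0.17), again short of -0.5, and Hoxb8 at -0.67 (-1.27 to -0.10), from 75 and 39 UMIs. As a mean of single-cell CPM the ratio of Hoxb7 was -0.31, also short of -0.5, and that of Hoxb6 turned to -0.29. Of the 70 WT UMIs of Hoxb8, 20 came from the 8 enteroendocrine-like cells described above and 19 from goblet-like cells, which had 5 in MG53-TG.

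Within cell types, Hoxb7 in goblet-like cells was at 3.81 CPM in WT (74 UMIs) and 1.97 CPM in MG53-TG (57 UMIs), a log2 ratio of -0.95 (-1.48 to -0.44), and in absorptive progenitor-like cells at 3.04 and 0.993 CPM, a ratio of -1.61 (-2.89 to -0.53). In tuft-like cells the ratio was -0.07 (-1.17 to 1.07). Onecut2 was higher in MG53-TG absorptive progenitor-like cells, at 150 against 114 CPM (0.40, 0.29 to 0.50), and enterocyte-like cells, at 170 against 133 CPM (0.35, 0.26 to 0.45), and was near equal in tuft-like cells (0.04, -0.21 to 0.30). Over the 5 bins of the regional score, from proximal to distal, its ratio was 0.24 (0.14 to 0.34), 0.18 (0.07 to 0.29), 0.17 (0.05 to 0.29), 0.14 (-0.08 to 0.36) and 0.68 (0.07 to 1.28). Osr2 was lower in MG53-TG stem-like cells, at 25.6 against 32.2 CPM (-0.33, -0.53 to -0.14), and not in goblet-like cells, at 23.3 against 22.1 CPM (0.08, -0.10 to 0.25). Gata4 in enterocyte-like cells was at 38.9 (WT) and 45.9 CPM (MG53-TG) (0.24, 0.06 to 0.42).

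**Figure D5:**
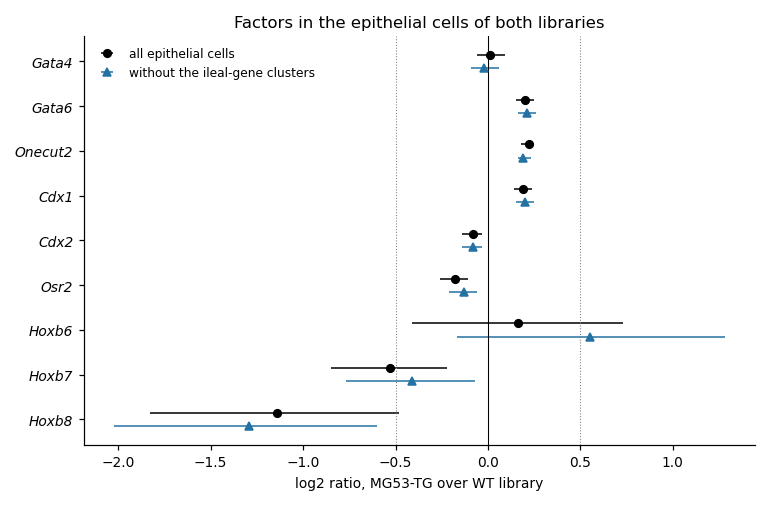
Log2 ratio of the MG53-TG over the WT library (x axis) for each factor (y axis) summed over all epithelial cells (circles) and without the 3 ileal-gene clusters (triangles), with exact 95% conditional binomial intervals. The solid line marks 0 and the dotted lines 0.5 in either direction. Hoxb7 and Hoxb8 lie to the left of -0.5 in all epithelial cells, where the other 7 factors lie between the dotted lines. Without the ileal-gene clusters Hoxb7 (-0.41) lies between them and Hoxb6 (0.55) to the right.

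The genes that these factors are linked with moved unevenly. Among the 22 distal genes, 4 were past -0.5 and 0 past 0.5, with a median of -0.01, where 3.87% and 9.17% of all genes tested were past these values. Fabp6 was at 342 (WT) and 140 CPM (MG53-TG) (-1.29, -1.32 to -1.26) and Slc10a2 at 25 and 14 CPM (-0.84, -0.94 to -0.74). Slc51b, part of a bile acid exporter, was at 70.7 and 79.3 CPM (0.16, 0.12 to 0.21). The ileal-gene clusters, which carry Fabp6, made up 13.4% and 9.92% of the epithelium, and their part in these ratios was not tested. Among the 22 proximal genes 2 were past 0.5 and 1 past -0.5, with a median of 0.21. Gstm3, a glutathione transferase, was at 30.6 and 49.2 CPM (0.68), and Cybrd1, the iron reductase of the duodenum, at 1.54 and 0.801 CPM (-0.94). Apoa4, an apolipoprotein, was at 477 and 566 CPM (0.25), and the alcohol dehydrogenase Adh6a (-0.01) and the lipid regulator Creb3l3 (0.02) were near 0.

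None of the 13 Cdx2-linked genes was past 0.5 in either direction, with a median of 0.18. Cdh17, the liver-intestine cadherin and a classical Cdx2 target, was at 314 and 326 CPM (0.05, 0.03 to 0.08), and Isx, an intestinal homeobox gene of vitamin A uptake, at 59.3 and 66 CPM (0.15, 0.10 to 0.21). The list's largest values were those of Guca2a (0.50), the guanylin gene, and Muc2 (0.46), the goblet cell mucin, and they stood beside a goblet-like share of 22.8% (WT) and 36.6% (MG53-TG); the part of that share was not tested. Of the 12 colon genes, 6 were tested, 1 was past 0.5 and 0 past -0.5. This was Slc37a2, with 20 and 26 UMIs (0.62, -0.28 to 1.53). Of the 46 other regulators 32 were tested, 3 were past 0.5 and 2 past -0.5, with a median of 0.02. They were Onecut3, a relative of Onecut2, at 0.971 and 1.88 CPM (0.95, 0.59 to 1.32), Klf4 at 171 and 279 CPM (0.71), Bhlhe40 (0.52), Hoxb9 at 2.83 and 1.75 CPM (-0.70, -0.98 to -0.41) and Hoxa9, with 30 and 8 UMIs (-1.67, -3.01 to -0.51). Bhlhe40 falls outside the rule for named genes and is given to complete the count.

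The genes most like each factor were sought over the 21 clusters, by the lower of the 2 libraries' Pearson r of log2(CPM + 5) among 7163 genes. For Gata4 they were Slc25a39 (0.92 in both libraries), Dtd2 and Usp10, for Gata6 Scamp5 (0.84 and 0.85), Efcab14 and Afg3l2, and for Onecut2 Prdm16 (0.88 and 0.85), Nmnat3 and Auts2. Ktn1 (0.91 and 0.94), Dcp2 and Ormdl1 were most like Cdx1, Rnpep (0.90 and 0.91), 2610507B11Rik and Sod1 were most like Cdx2, and Rassf7 (0.84 in both libraries) and Gtf2b were among those most like Osr2. The Hoxb genes had too few UMIs for this. They were picked from the top of 7163 values, and the clusters share their libraries. Among the members themselves, Gata4 and Onecut2 correlated at 0.64 and 0.61, Onecut2 and Osr2 at -0.50 and -0.42, and Hoxb6 and Hoxb7 at 0.51 and 0.81.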

How the data were processed

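Sorted epithelial cells were captured with the 10x Genomics 3′ kit (version 3), in 1 library per genotype. The values deposited by the authors are raw UMI counts, 1 value for each gene in each barcode. Cell Ranger wrote them, WT with version 4 and MG53-TG with version 6.0.1, per the file headers. The table of WT holds all barcodes, whereas the lowest kept MG53-TG barcode in the table has 500 UMIs. The submitters' notes name mm10 and Seurat. Symbols and Ensembl identifiers were paired by the files. Summed counts measure transcripts of a class, so fewer cells of a position and less RNA per cell cannot be told apart in the epithelial sum.

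Barcodes with at least 200 genes, at most 25% mitochondrial UMIs and the UMI minimum of the common filter (1354) were kept. Scrublet's automatic threshold marked 0.0135% and 0.0388% of barcodes and had not worked, so the highest-scoring 438 WT and 212 MG53-TG barcodes were removed, at 0.8% per 1000 cells. Cells were clustered with scanpy 1.11.5 (2000 variable genes without the 9 factors, 30 components, 15 neighbours, Leiden resolution 1, 26 clusters). Classes were called X-like from at least 3 fixed markers, and a cluster stayed unnamed where it was shallow or its leading genes were markers of another list. Names were rebuilt here and may differ from the study's. Levels are CPM, with exact Poisson intervals. Log2 ratios have exact conditional binomial intervals, and shares have Clopper-Pearson intervals, all at 95% and for counting error only. A group at 0 was set to 3 counts for a bound. A call needed 30 UMIs and a log2 ratio of 0.5 between libraries, or 1 between end bins. The calling script was tested on simulated counts.

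No count test was run. The members, gene lists and markers were chosen with earlier results of these data known. All 9 members are named. Beyond them, the rule named the 3 most like genes of each member with at least 200 UMIs per library, up to 6 regulators by their end-bin difference and 4 by their ratio, 11 preset list genes and the 2 genes of each list with the largest ratio. A few genes that this rule names are not reported here.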

Additional observations from a re-analysis of the deposited data

Results flagged for a closer look

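Cdx2 was picked out because its ratio between the libraries pointed in opposite directions in different epithelial cell types with intervals that excluded 0. In enterocyte-like cells its log2 ratio, MG53-TG over WT, was 0.20 (0.08 to 0.33), in stem-like cells -0.17 (-0.29 to -0.05) and in goblet-like cells -0.20 (-0.33 to -0.06). The difference between these ratios was not tested, since each genotype has 1 library. Among the goblet-like clusters, cluster 20 (105 WT and 76 MG53-TG cells) was at -0.81 (-1.29 to -0.36). The intervals of the larger goblet-like clusters included 0: -0.12 (-0.33 to 0.09) in cluster 0, -0.02 (-0.28 to 0.23) in cluster 2 and -0.24 (-0.61 to 0.13) in cluster 6. The scaling by median of ratios lowers each epithelial value by about 0.09. Lowered by that much, the enterocyte-like interval would include 0, so that its separation from 0 depends on the scaling.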

How the results depend on the processing

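No paired analysis was possible because each group has 1 library, and for the same reason no replicate could be left out. With at least 3000 UMIs per barcode, the members allowed among the variable genes (0 of them were chosen), Leiden resolution 2 or without shared barcodes, each epithelial ratio stayed within its counting interval. The median of ratios gave -0.08 for Gata4, 0.11 for Gata6, 0.13 for Onecut2, 0.10 for Cdx1, -0.17 for Cdx2 and -0.28 for Osr2. The mean of single-cell CPM gave 0.10 for Gata6, 0.18 for Onecut2 and -0.14 for Cdx2, and each type weighted equally gave 0.12 for Gata6, 0.18 for Onecut2, 0.08 for Cdx1, -0.10 for Osr2, 0.80 for Hoxb6 and -1.87 for Hoxb8. A mitochondrial limit of 50% gave 0.32 for Onecut2 and 0.11 for Cdx1.

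The score on unthinned counts took in 5219 WT and 3930 MG53-TG cells, of which 49.2% and 37.3% were absorptive, against 89.8% and 85.1% with thinning. It turned the end-bin difference of Cdx2 to -0.08 (WT) and -0.61 (MG53-TG), and for MG53-TG also those of Gata6 to 0.04 and Cdx1 to 0.38. It also gave -0.03 for Gata6, -1.77 for Onecut2, 0.47 for Cdx1 and 1.32 for Osr2 in WT, and -1.39 for Gata4, -1.04 for Onecut2 and 0.78 for Osr2 in MG53-TG. Enterocyte-like cells alone reach a median score of only 20% in WT and 18.2% in MG53-TG in their last bin. They gave -0.22 for Gata4, -1.16 for Onecut2, 0.18 for Cdx1, 0.23 for Cdx2 and 0.59 for Hoxb7 in WT, and 0.22 for Gata4, -0.23 for Gata6, -1.14 for Onecut2, 0.04 for Cdx1 and 1.36 for Osr2 in MG53-TG, where Gata4 and Cdx1 turned. With 3 bins the values were -1.17 for Gata4, -2.50 for Onecut2 and 1.88 for Osr2 in WT, and -0.36 for Gata6, -2.28 for Onecut2, -0.52 for Cdx1 and 1.85 for Osr2 in MG53-TG. Lists without Fabp1, Apoa4 and Fabp6 gave 1.92 for Osr2 and 5.23 for Hoxb7 in WT, and -0.49 for Cdx1 and 0.20 for Cdx2 in MG53-TG, and a minimum of 20 list UMIs gave 5.21 for Hoxb7. Doublets kept gave -3.05 for Onecut2 in WT, and -0.34 for Gata6, -2.85 for Onecut2 and -0.40 for Cdx1 in MG53-TG. Absorptive cells alone, added after the data were seen, gave 0.25 for Cdx1 in WT and -4.02 for Onecut2 and -0.04 for Cdx1 in MG53-TG. Onecut2 and Osr2 kept their directions under all of these, in both libraries.

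The sum of Hoxb6, Hoxb7, Hoxb8 and Osr2 in cells with over without a Gata4 UMI was -0.21 (WT) and -0.34 (MG53-TG), and on thinned counts 0.09 and -0.05. The causes of these shifts were not tested. Depth limits the Hoxb genes, which had 27 to 227 UMIs per library.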
